A study of Mus musculus with 8 samples.

Results

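The solute carriers are membrane proteins that move sugars, amino acids, peptides, ions, metals, vitamins and nucleosides across cell membranes without being pumps that split ATP. Their genes carry the prefix Slc, a family number and a member letter and number. Here the set was every gene of the deposited expression table whose symbol starts with Slc and a digit and whose mean over all 8 libraries was at least 50 normalised counts, which gave 220 of the 14247 genes in the table. The table held 257 Slc symbols in all, and the other 37 lay under that mean. Just inside it were Slc27a3 with a mean of 52.1 and Slc29a2 with 53.6, and just outside were Slc25a45 with 49.0 and Slc26a6 with 46.3. A normalised count is the number of reads of a gene divided by 1 factor per library that corrects for depth.

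RNA was sequenced from colonic crypts of wild-type mice to follow gene expression over the day. Collections took place at ZT0, ZT6, ZT12 and ZT18 (zeitgeber time in h), with lights on at ZT0 and off at ZT12 in a cycle of 12 h of light and 12 h of dark, so that ZT0 and ZT6 fall in the resting phase of mice, and ZT12 and ZT18 in the active phase. For each of the 4 times 2 libraries of wild-type mice were analysed. By the methods of the study the mice were of a C57BL/6 background, were 2 to 4 months old and had free access to food and water, and the labels name no further allele, agent or deletion at any time point. The labels call the libraries separate samples but do not say that each came from its own mouse, so that all p-values measure the spread between libraries only. For its colonic crypt time series the study states more mice per time point than the 2 libraries held here. The time points are 4 points of a single cycle, and a 24 h rhythm cannot be told apart from a difference between days or collections.

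Recovered reads ranged from 14722342 to 25159440 per library with a median of 17507372, and the mitochondrial genome took 6.68% to 22.2% of all values. The markers of the epithelium were present in all 8 libraries, with a sum over 8 genes of 234399 to 317202 normalised counts. ZT12 replicate 1 had the highest sum for smooth muscle, with 5394 normalised counts against 739 to 1318 in the other 7, and for fibroblasts, with 2791 against 6.43 to 739.7. ZT0 replicate 2 had the highest sum for B and plasma cells, with 5193 against 332 to 1768, and for myeloid cells, with 1935 against 636 to 1122. T cell genes summed to 38.7 to 314, endothelial genes to 59.5 to 555, goblet cell genes to 257793 to 507292, colonocyte genes to 493302 to 696264, and the 3 of 8 genes of enteric neurons and glia in the table to 43.8 to 98.6. The colonocyte list includes the member Slc26a3. Its gene Car1 was at 25770 in ZT0 replicate 1 and 29320 in ZT18 replicate 1, against 101729 to 156024 in the other 6 libraries. No other gene of that list had its lowest 2 values in these libraries. ZT0 replicate 1 and ZT18 replicate 1 stood apart from the other 6 libraries in the anterior Hoxb and Hoxd genes, whose domain in the body axis lies towards the head. The sum over 9 of these genes was 30.8 and 2370.1 (ZT0), 1078 and 1404 (ZT6), 1494 and 558 (ZT12), and 23.1 and 2284 (ZT18), and 6 of the 9 were at 0 in each of the 2 libraries. In bulk RNA, fewer cells of a type and less RNA per cell cannot be told apart.

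The colon takes up sodium, chloride, water and the short-chain fatty acids that bacteria make from fibre, and secretes bicarbonate. Sodium enters through the sodium/hydrogen exchangers of the SLC9 family and chloride through the SLC26 family on the side of the lumen, while monocarboxylate carriers of the SLC16 family move butyrate and lactate. Transporters of digested sugar and peptide are best known from the small intestine, where several of them are known to follow the daily time of feeding.

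To compare genes of different length, the mean normalised count was divided by the length of merged exons in kb. On this scale the adenine nucleotide carrier of mitochondria Slc25a5 led the set with 12361 per kb, followed by the chloride/bicarbonate exchanger Slc26a3 with 4841, the choline transporter-like gene Slc44a4 with 4131 and the sodium- and chloride-coupled amino acid transporter Slc6a14 with 4089.7. Slc9a3r1, with 4823 per kb, is not a carrier but a scaffold protein that binds SLC9A3. Next among the carriers came the mitochondrial phosphate carrier Slc25a3 with 2703, the creatine transporter Slc6a8 with 2421 and the phosphate transporter Slc20a1 with 2159 per kb. The classes differed widely in their highest member but less in their median. The median was 175 per kb for the 23 carriers of nucleotide sugars and acetyl-CoA, 162 for the 24 of trace metals and heme, 155 for the 27 of inorganic ions, 131 for the 29 of vitamins, choline, organic ions and amines, 126 for the 37 mitochondrial carriers and 122 for the 17 of sugars. It was 159 for the 10 of bile acids and lipids, 74.3 for the 11 of carboxylates, 62.4 for the 29 of amino acids, 65.6 for the 3 of peptides and 21.2 per kb for the 6 of nucleosides. A class follows the gene family and its best-known substrate, and several members have no substrate that is firmly known. Besides Slc9a3r1, the symbols Slc9a3r2, Slc7a6os and the antisense gene Slc13a2os name no transporter, and these 4 were counted apart.

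**Figure D1:**
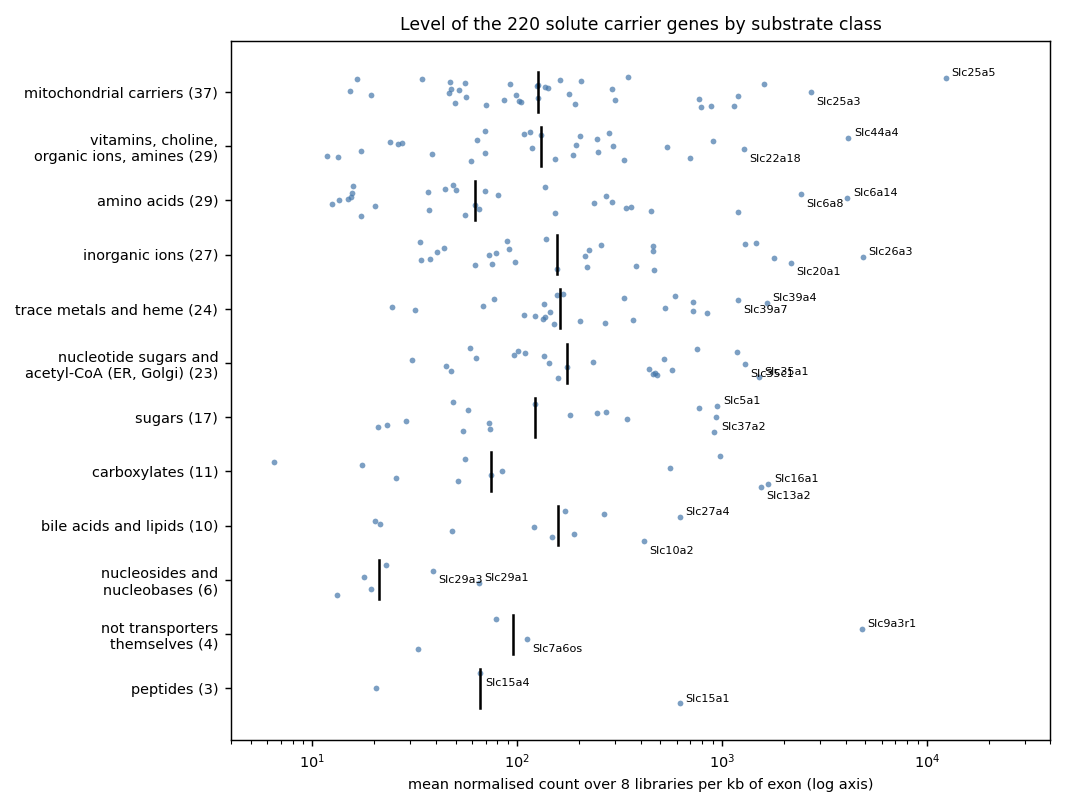
Mean normalised count over the 8 libraries per kb of exon (log axis) of each of the 220 genes, one point a gene, by substrate class with the number of genes in brackets; the vertical bar is the class median and the 2 highest genes of each class are named. The nucleoside class sits lowest with a median of 21.2, and Slc25a5 is the highest point at 12361.

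Rhythm was tested by fitting a cosine with a period of 24 h to log2(normalised count + 1) of each of 13503 genes with limma, and p-values were adjusted over all of them by the Benjamini-Hochberg method. The amplitude is the distance from the fitted mean to the fitted peak on the log2 scale. None of the 220 genes passed an adjusted p of 0.05 in this fit, in which 0.118% of all genes tested did, and the smallest adjusted p of a member was 0.154 for Slc9a3. At a nominal (unadjusted) p under 0.05 there were 34 members or 15.5%, beside 9.15% of all genes tested. The edgeR quasi-likelihood test on the recovered reads called 0 members as well (0.0889% of all genes; 29 members at a nominal p under 0.05). DESeq2 on the same reads called 9, which were Slc9a3, Slc34a2, Slc35g1, Slc2a5, Slc36a1, Slc6a4, Slc6a14, Slc20a1 and Slc25a20, beside 1.62% of all genes with an adjusted p. An exact rank test against 24 h cosine orders called 0 after adjustment. With 8 libraries its smallest possible p is too large to pass the adjustment over 13503 genes here, so this 0 says nothing about rhythm. It gave 6 members a nominal p under 0.05 (2.06% of all genes), which were Slc9a3, Slc34a2, Slc35g1, Slc2a5, Slc19a2 and Slc27a3. Which genes stand out at a nominal level is therefore described here from their values, and a rhythm of any single carrier rests on the choice of test.

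With all 8 libraries the fitted peaks of the 34 members were not spread evenly over the day. Of the 34, 26 (76.5%) peaked between ZT6 and ZT18, against 605 of the 1235 genes with a nominal p under 0.05 (49.0%), and 12 (35.3%) peaked in the 3 h from ZT9 to ZT12, against 16.7% of the 1235. Over all 220 members 138 (62.7%) peaked between ZT6 and ZT18, against 51.4% of all genes tested. In this design a fitted peak between ZT6 and ZT18 is the same as a higher log2 mean at ZT12 than at ZT0. These counts and those of ZT12 against ZT0 are therefore not separate results. The median amplitude of the members was 0.22, and that of all genes tested was 0.23. By class, beside the 9.15% of all genes tested, the count under a nominal p of 0.05 was 5 of 17 for sugars, 7 of 27 for inorganic ions, 6 of 29 for amino acids, 5 of 29 for vitamins, choline, organic ions and amines, 2 of 11 for carboxylates, 3 of 23 for nucleotide sugars and acetyl-CoA, 3 of 24 for trace metals and heme and 3 of 37 for mitochondrial carriers. No gene of the classes of bile acids and lipids, nucleosides or peptides, and none of the 4 that are not transporters, was among the 34. These counts moved with the libraries used. There were 18 members under 0.05 without ZT6 replicate 2 (5.77% of all genes tested), 21 without ZT12 replicate 1 and ZT0 replicate 2 (5.09%), and 61 without ZT0 replicate 1 and ZT18 replicate 1 (18.3%).

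**Figure D2:**
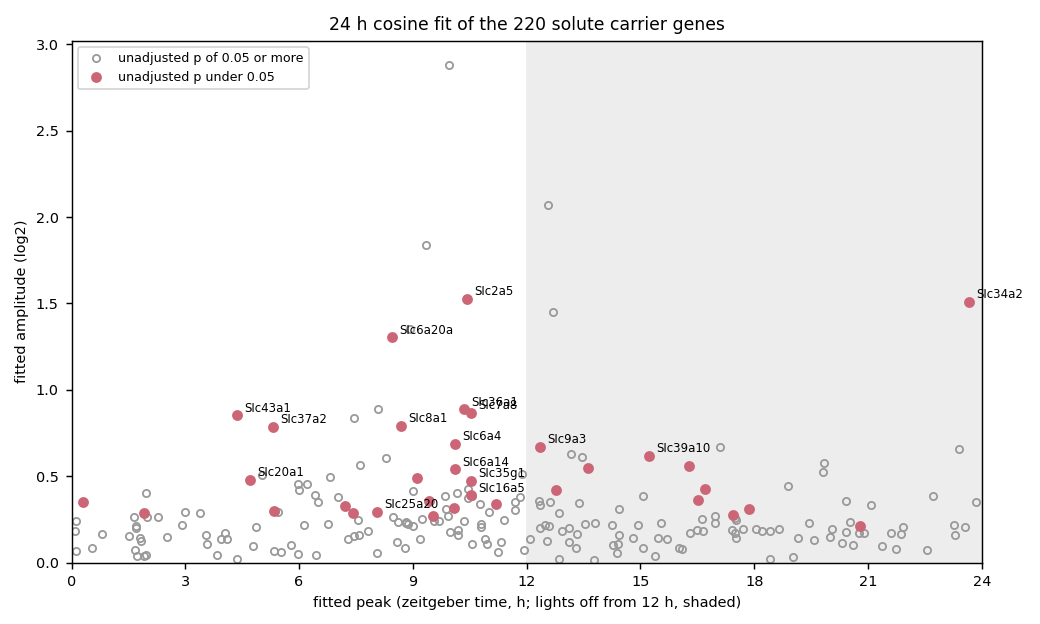
Fitted amplitude (log2) against fitted peak time (h; the dark phase is shaded) of the 220 genes in the 24 h cosine fit; filled points have a nominal p under 0.05 and open points do not. Of the 34 filled points, 26 lie between 6 and 18 h, and Slc34a2 stands alone near the right edge at 23.7 h.

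The member with the smallest p was Slc9a3 (ENSMUSG00000036123, chr13:74121457-74169442, plus strand, GRCm38), the sodium/hydrogen exchanger by which colonocytes take up sodium. Its normalised counts were 4386 and 4351 (ZT0), 7773 and 8096 (ZT6), 12298 and 9862 (ZT12), and 9387 and 7955 (ZT18). Both ZT0 libraries lay below all others and the ZT12 libraries above all others. The fitted amplitude was 0.67 (SE 0.10) with a peak at 12.4 h. The difference between ZT12 and ZT0 was 1.33 (SE 0.19) on the log2 scale, with an adjusted p of 0.0594 in limma and 1.63e-09 in DESeq2. With single libraries left out the amplitude of this gene ran from 0.62 to 0.78.

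The promoters of 4 genes are shown because each holds the E-box CACGTG, the site that the clock factors CLOCK and BMAL1 bind, and because 3 of them, Slc9a3, Slc36a1 and Slc20a1, were among the 12 members with the smallest p and Slc5a1, the thirteenth, is the glucose transporter best known for a daily rhythm in the gut. They were chosen after their values were seen. Each run gives 250 bases before to 50 bases from the annotated start, from RefSeq on GRCm38.p6, 5′ to 3′ on the plus strand, with the E-box in capitals.
Slc9a3, chr13:74121163-74121462: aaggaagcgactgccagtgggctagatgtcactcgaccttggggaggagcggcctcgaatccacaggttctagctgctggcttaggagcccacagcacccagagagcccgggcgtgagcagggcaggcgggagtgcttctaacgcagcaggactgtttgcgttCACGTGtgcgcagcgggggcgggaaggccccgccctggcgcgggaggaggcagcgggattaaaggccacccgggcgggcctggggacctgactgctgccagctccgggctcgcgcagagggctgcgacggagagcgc
Slc36a1, chr11:55204090-55204389: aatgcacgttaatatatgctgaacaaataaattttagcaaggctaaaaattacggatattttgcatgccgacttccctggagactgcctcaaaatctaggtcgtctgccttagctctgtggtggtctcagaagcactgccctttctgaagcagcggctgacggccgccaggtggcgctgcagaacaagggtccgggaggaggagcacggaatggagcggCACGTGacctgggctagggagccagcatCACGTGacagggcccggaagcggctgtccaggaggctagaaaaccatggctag
Slc5a1, chr5:33103969-33104268: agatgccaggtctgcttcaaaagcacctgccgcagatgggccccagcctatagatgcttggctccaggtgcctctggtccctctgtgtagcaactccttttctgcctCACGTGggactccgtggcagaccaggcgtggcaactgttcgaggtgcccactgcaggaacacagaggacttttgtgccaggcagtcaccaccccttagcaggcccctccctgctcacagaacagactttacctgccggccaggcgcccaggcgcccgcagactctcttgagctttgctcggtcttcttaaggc
Slc20a1, chr2:129198523-129198822: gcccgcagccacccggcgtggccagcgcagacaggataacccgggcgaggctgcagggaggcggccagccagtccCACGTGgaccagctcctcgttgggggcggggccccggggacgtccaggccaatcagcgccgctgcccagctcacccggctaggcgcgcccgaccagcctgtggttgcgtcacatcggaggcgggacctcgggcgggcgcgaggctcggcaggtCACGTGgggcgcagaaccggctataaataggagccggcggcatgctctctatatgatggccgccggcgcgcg
The E-box began 87 bases before the start of Slc9a3, 31 and 3 bases before that of Slc36a1, 143 bases before that of Slc5a1, and 175 and 22 bases before that of Slc20a1. A second promoter listed for Slc20a1 held none.

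An entry was found for 171 of the 220 members, with 224 promoters between them. The E-box, which reads the same on both strands, was in 30 of the 224 (13.4%), against 9.51% of the 13956 promoters of genes in the deposited table and 7.15% of all 32851 promoters listed. Counted by gene, in any promoter of the gene, it was present in 28 of the 171 members (16.4%) and in 1241 of 10954 genes of the deposited table. Among members with an entry it was present, by gene, in 8 of 30 (26.7%) of those with a nominal p under 0.05 in the cosine fit and in 20 of the other 141 (14.2%). The 8 were Slc9a3, Slc36a1, Slc5a1, Slc20a1, Slc16a1, Slc43a1, Slc25a36 and Slc33a1, whose fitted peaks ran from 1.91 h for Slc16a1 to 16.5 h for Slc33a1. On both strands the D-box TTATGTAA was in 2 of the 224 promoters (0.893%; 0.573% of promoters of genes in the table, 0.938% of all listed). The element TAGGTCA, bound by REV-ERB and ROR receptors, was in 8 (3.57%; 1.94% and 2.61%). The glucocorticoid response element was in 0 (0.358% and 0.475%). The split by nominal p was not made for all genes tested, so it cannot show whether the difference is particular to the members. A match describes the letters of this window only and was not tested against the values.

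Besides Slc9a3, the inorganic ion carriers with the smallest p were 2 phosphate carriers, and neither had its highest values at ZT12. Slc34a2 (chr5:53038081-53071664), a sodium/phosphate cotransporter of epithelia, had normalised counts of 2810.0 and 1693 (ZT0), 961 and 622 (ZT6), 141 and 515 (ZT12), and 836 and 1046 (ZT18). It was highest in the ZT0 libraries and lowest in the ZT12 libraries, with no overlap between any of these and the remaining 4. The amplitude was 1.51 (SE 0.25), the peak 23.7 h, and the difference between ZT12 and ZT0 was -3.01 (SE 0.52), with an adjusted p of 0.144 in limma and 1.87e-06 in DESeq2. With single libraries left out the difference ran from -3.94, without ZT12 replicate 2, to -2.08. Slc20a1 (chr2:129198764-129211616), a sodium/phosphate cotransporter of the SLC20 family, had 14289 and 11938 (ZT0), 18336 and 13602 (ZT6), 10671 and 10339 (ZT12), and 10213 and 6999.6 (ZT18). Its ZT18 libraries lay below its ZT6 libraries, by -0.90 (SE 0.25), with an adjusted p of 0.61 in limma and 0.0457 in DESeq2. A gene on the opposite strand, 9830144P21Rik, overlaps its exons, and without strand in the counting the reads of the pair cannot be told apart.

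The chloride and sulfate exchangers were high throughout. Slc26a3, which takes up chloride in exchange for bicarbonate, had normalised counts of 35214 and 21369 (ZT0), 25979.6 and 18039.5 (ZT6), 36649 and 42882 (ZT12), and 43260.5 and 23279 (ZT18). Its 2 ZT12 libraries lay above both ZT0 libraries, but ZT18 replicate 1 was higher still and ZT18 replicate 2 was near the ZT0 values. Slc26a2, a sulfate transporter, had 22441 and 15574 (ZT0), 23132 and 21970.1 (ZT6), 38063 and 22713 (ZT12), and 16535 and 17278 (ZT18), with ZT12 replicate 1 well above the other 7. The difference of 0.53 (SE 0.37) for Slc26a3 and 0.65 (SE 0.29) for Slc26a2 between ZT12 and ZT0 did not pass, with limma adjusted p of 0.651 and 0.503. The exchanger Slc9a2, which shares the apical membrane with SLC9A3, spanned only 7527 to 10330.5 over the 8 libraries.

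On the basolateral side, which faces the blood, the sodium/potassium/chloride cotransporter Slc12a2 had 5096 and 4348 (ZT0), 5413 and 4864 (ZT6), 8149.6 and 4107 (ZT12), and 2977 and 5846 (ZT18), and the 2 libraries of ZT12 and of ZT18 differed more than the time points did. The sodium/bicarbonate cotransporter Slc4a4 had 2188 and 1615 (ZT0), 3216 and 1886 (ZT6), 2625 and 3103 (ZT12), and 2113 and 2689 (ZT18), with both ZT12 libraries above both ZT0 libraries. Its difference was 0.60 (SE 0.27), for which limma gave an adjusted p of 0.503. The sodium/calcium exchanger Slc8a1 had its lowest value, 285, in ZT18 replicate 1 and its highest, 1278, in ZT12 replicate 1.

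Slc13a1, a sodium/sulfate cotransporter, had the largest excess of ZT12 over ZT0 in this class, 2.86 (SE 1.10), and also one of the least stable. Its normalised counts were 42.7 and 228 (ZT0), 352 and 369.9 (ZT6), 1582 and 331 (ZT12), and 167 and 1599.7 (ZT18), so that the pairs at ZT0, ZT12 and ZT18 each differed over 4-fold within the pair, and the limma adjusted p was 0.468. Of the 27 inorganic ion genes, 4 were higher and 1 was lower at ZT12 than at ZT0 at a nominal p under 0.05, as were 5.01% and 4.95% of all genes tested. The 2 libraries of ZT12 lay above both of ZT0 in 13 of the 27 and below both in 4, against 20.7% and 20.3% of all genes. Slc4a1ap, counted here by its symbol, encodes a protein that binds an anion exchanger and is no carrier itself.

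Among the sugar carriers Slc2a5 and Slc5a1 had their highest values at ZT12. Slc2a5 (chr4:150119283-150144169), the fructose transporter of the apical membrane, was low, with normalised counts of 8.94 and 33.6 (ZT0), 99.8 and 89.2 (ZT6), 155 and 105 (ZT12), and 41.9 and 37.8 (ZT18). The lowest library, ZT0 replicate 1, rested on 9 reads. All values at ZT6 and ZT12 lay above those at ZT0 and ZT18. The amplitude was 1.53 (SE 0.30) with a peak at 10.4 h, and ZT12 exceeded ZT0 by 2.80 (SE 0.60) with an adjusted p of 0.272 in limma and 0.00978 in DESeq2. Summed over each pair of libraries the ratio was 6.14-fold, with an exact 95% interval of 4.46 to 8.62 that covers counting error only.

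Slc5a1 (chr5:33104219-33162870), the sodium/glucose cotransporter, had normalised counts of 3473 and 2698 (ZT0), 3315 and 3257 (ZT6), 6133 and 4803 (ZT12), and 3238 and 4202 (ZT18). Both ZT12 libraries lay above all 6 others. The difference between ZT12 and ZT0 was 0.83 (SE 0.21), with an adjusted p of 0.343 in limma and 0.0322 in DESeq2. Slc2a1, a glucose transporter of most cells, was nearly flat, from 2886 to 3709.

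Slc37a2, a sugar-phosphate exchanger of the endoplasmic reticulum, had 11692 and 4594 (ZT0), 7679 and 7800.2 (ZT6), 5066 and 7149 (ZT12), and 3783 and 1859 (ZT18). Both ZT18 libraries were the lowest, with ZT0 replicate 1 the highest of all and ZT0 replicate 2 below both ZT6 libraries. ZT18 was below ZT6 by -1.54 (SE 0.44), with an adjusted p of 0.634 in limma and just under 0.05 in DESeq2. Slc5a3, which takes up myo-inositol, had 1104 and 1033 (ZT0), 1178 and 943 (ZT6), 1229 and 1371 (ZT12), and 2417 and 1404 (ZT18), with both ZT18 libraries above all others; its exons overlap those of Mrps6 on the same strand. Slc2a9, a urate transporter named for its sugar carrier family, had both ZT12 libraries above both ZT0 libraries, by 1.00 (SE 0.31) on the log2 scale, with a limma adjusted p of 0.388. Of the 17 sugar genes, 9 had both ZT12 libraries above both ZT0 libraries and 1 had both below (20.7% and 20.3% of all genes tested). In 9 both ZT18 libraries lay below both ZT6 libraries and in 3 above (18.8% and 19.2%).

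**Figure D3:**
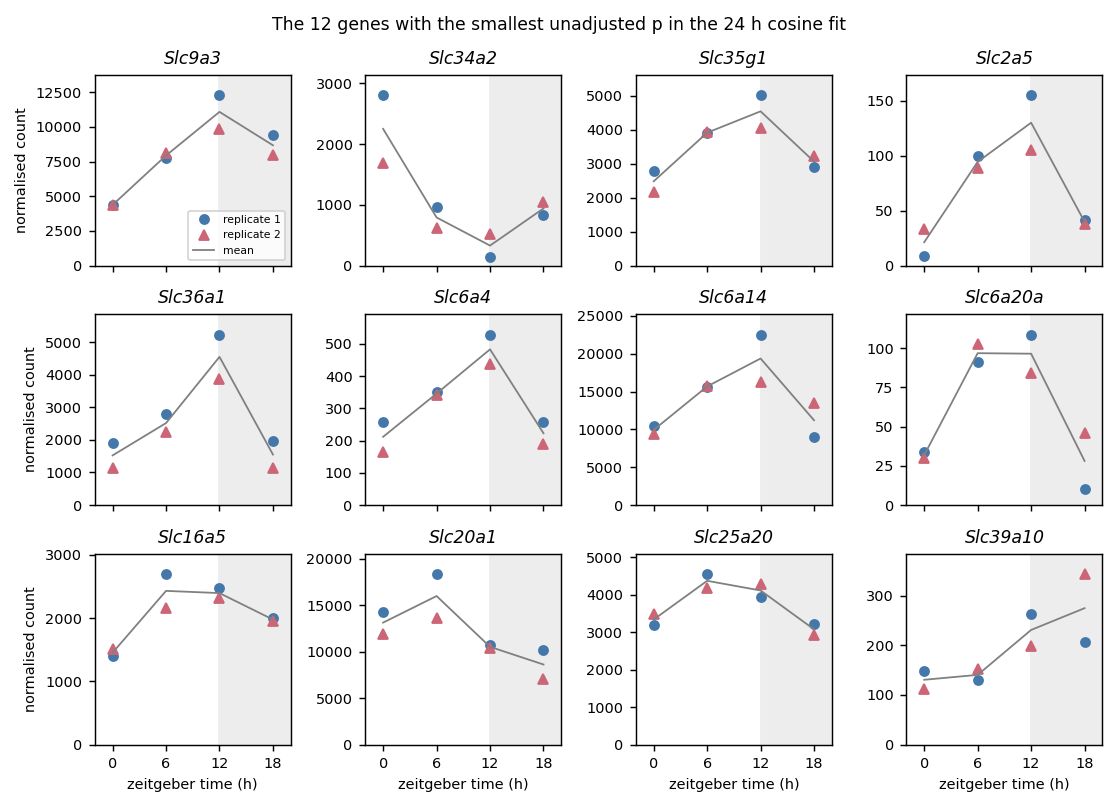
Normalised counts of the 12 members with the smallest nominal p in the cosine fit against zeitgeber time (h; the dark phase is shaded), with circles for replicate 1, triangles for replicate 2 and a grey line through the means; each vertical axis starts at 0. Slc34a2 is highest at ZT0 and lowest at ZT12, most others are highest at ZT6 or ZT12, and Slc39a10 is highest at ZT18.

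Among amino acid carriers, Slc36a1, Slc6a14 and Slc6a20a each had the highest library at ZT12. Slc36a1 (chr11:55204350-55236330), a proton-coupled carrier of small amino acids, had normalised counts of 1904 and 1143 (ZT0), 2783 and 2249.8 (ZT6), 5235 and 3861 (ZT12), and 1972 and 1128 (ZT18). Both ZT12 libraries exceeded all others, and ZT0 and ZT18 overlapped. Its amplitude was 0.89 (SE 0.18) with a peak at 10.3 h, and ZT12 exceeded ZT0 by 1.61 (SE 0.32), with an adjusted p of 0.239 in limma and 0.00038 in DESeq2. With single libraries left out the amplitude of this gene ran from 0.73 to 1.10.

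Slc6a14 (chrX:21714896-21742355), which takes up neutral and cationic amino acids, was the most abundant amino acid carrier, with 10492 and 9365 (ZT0), 15589 and 15759 (ZT6), 22539.7 and 16197 (ZT12), and 8937 and 13472 (ZT18). The ZT12 values were the highest 2, though ZT12 replicate 2 was close to both ZT6 libraries. ZT12 exceeded ZT0 by 0.95 (SE 0.25), with an adjusted p of 0.351 in limma and 0.0136 in DESeq2. Slc6a20a (chr9:123634770-123678885), a proline transporter, was low, with 33.8 and 29.8 (ZT0), 91.2 and 102 (ZT6), 109 and 84.2 (ZT12), and 10.3 and 45.8 (ZT18). All values at ZT6 and ZT12 lay above those at ZT0 and ZT18, and the 2 libraries of ZT18 differed over 4-fold. ZT18 was below ZT6 by -2.09 (SE 0.65), with a limma adjusted p of 0.634. Ccr9 on the opposite strand overlaps its exons.

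Other amino acid carriers, among them exchangers found in most cells, had no common order of the time points. The heavy chain Slc3a2 had 1249 and 1088 (ZT0), 772 and 929 (ZT6), 938 and 972 (ZT12), and 1060.3 and 1132 (ZT18), and its partner Slc7a5, a transporter of large neutral amino acids, ranged from 114 to 253. The ZT12 libraries of Slc3a2 lay below both at ZT0, and those of Slc7a5 overlapped. The glutamine transporter Slc1a5 ranged from 3726 to 6378 and the creatine transporter Slc6a8 from 9435 to 17567. Slc1a4, an exchanger of alanine, serine and cysteine, had 676 and 865 (ZT0), 515 and 651 (ZT6), 563 and 397 (ZT12), and 506 and 612 (ZT18). Both ZT12 libraries lay below both at ZT0, by -0.69 (SE 0.25), with a limma adjusted p of 0.427. Slc43a1, a carrier of large neutral amino acids, was lower at ZT18 than at ZT6 by -1.55 (SE 0.54), with normalised counts of 95.4 and 116 (ZT0), 106 and 93.6 (ZT6), 86.1 and 47.3 (ZT12), and 19.7 and 56.3 (ZT18) and a limma adjusted p of 0.676. Of the 29 amino acid genes, 6 were higher and 1 was lower at ZT12 than at ZT0 at a nominal p under 0.05 (5.01% and 4.95% of all genes tested). With no overlap between the libraries 13 were higher and 3 lower (20.7% and 20.3%).

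All 3 peptide carriers had a higher mean on the log2 scale at ZT12 than at ZT0, but only Slc15a2 without overlap. Slc15a2 (chr16:36750177-36784962), a proton-coupled peptide transporter of high affinity, had normalised counts of 2.98 and 7.46 (ZT0), 262 and 112 (ZT6), 149.8 and 64.6 (ZT12), and 149 and 452 (ZT18). The ZT0 values rest on 3 and 8 reads, and the other 6 libraries on 56 to 562. ZT12 exceeded ZT0 by 4.10 (SE 0.70), with an adjusted p of 0.141 in limma and 1.45e-05 in DESeq2. Summed over each pair the ratio was 21.1-fold with an exact 95% interval of 11.6 to 42.9 for counting error. In the F-test over the 4 time points its limma adjusted p of 0.0815 was the smallest of the 220 genes, none of which passed in that test (0.0889% of all genes did). A nominal p under 0.05 was found for 26 members (11.8%, against 7.03% of all genes), edgeR called 0 (0.0741% of all genes; 24 members at a nominal p under 0.05) and DESeq2 called 9 (1.61%), Slc15a2 among them. Its highest library was at ZT18, not at ZT12, and the cosine fit gave a nominal p of 0.066.

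Slc15a1, the peptide transporter of the small intestine, had 4059 and 1470.0 (ZT0), 3495 and 2273 (ZT6), 3756 and 4320.0 (ZT12), and 3267 and 1639.9 (ZT18). The pairs at ZT0 and ZT18 each differed more than the means of the time points, with ZT0 replicate 1 close to the ZT12 values. Slc15a4, a peptide and histidine carrier of lysosomes, ranged from 256 to 498. For neither of these did the limma contrast of ZT12 with ZT0 pass, with adjusted p of 0.621 and 0.851.

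Among the carboxylate carriers, Slc16a1 and Slc5a8 both move short-chain fatty acids and differed in the order of the time points. Slc16a1, which carries lactate and butyrate, had normalised counts of 8917 and 7944 (ZT0), 8457 and 8374 (ZT6), 6179 and 5743 (ZT12), and 7228 and 6719.8 (ZT18). The 2 libraries of ZT12 were the lowest of all 8, below ZT0 by -0.50 (SE 0.17), at a limma adjusted p of 0.407. Slc5a8, a sodium-coupled carrier of short-chain fatty acids on the side of the lumen, had 5491 and 3936 (ZT0), 5219 and 5495 (ZT6), 6754 and 6081 (ZT12), and 4543 and 4293 (ZT18). Both ZT12 libraries lay above all 6 others. ZT12 exceeded ZT0 by 0.46 (SE 0.19), with a limma adjusted p of 0.489.

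Slc16a5 (chr11:115462474-115474398), a further member of the monocarboxylate family, had 1402 and 1505 (ZT0), 2698 and 2165 (ZT6), 2478 and 2314 (ZT12), and 2004 and 1952 (ZT18). Both ZT0 libraries were the lowest. ZT12 exceeded ZT0 by 0.72 (SE 0.17), with an adjusted p of 0.309 in limma and 0.0267 in DESeq2; an antisense gene, Gm11695, overlaps it. Slc16a12, a creatine carrier, was lower at ZT18 than at ZT6 by -1.55 (SE 0.47), with a limma adjusted p of 0.634. Slc13a2, which carries citrate and succinate, had its lowest and highest values, 2569.6 and 5544, in ZT0 replicate 1 and ZT18 replicate 1, and no order by time.

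The class of vitamins, choline, organic ions and amines held 1 gene among the 12 with the smallest p. Slc6a4 (chr11:76998603-77032340), the serotonin transporter by which the epithelium clears serotonin, had normalised counts of 257 and 166 (ZT0), 351 and 341 (ZT6), 529 and 437 (ZT12), and 257 and 188 (ZT18). The ZT12 pair was the highest, the ZT6 pair came next, and ZT0 and ZT18 overlapped. ZT12 exceeded ZT0 by 1.21 (SE 0.28), with an adjusted p of 0.309 in limma and 0.0352 in DESeq2. Slc46a3, a lysosomal carrier, was higher at ZT18 than at ZT6 by 1.00 (SE 0.33), with a limma adjusted p of 0.652. Slc44a4, which takes up thiamine pyrophosphate in the colon, was nearly flat at 11022 to 14242, and so was Slc22a18, an organic cation transporter-like gene, at 1891 to 2343. The choline transporter Slc44a1 ranged from 5098 to 7276, with both ZT18 libraries below both ZT6 libraries.

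Of the carriers of trace metals and heme, 1 zinc importer was among the 12 members with the smallest p. Slc39a10 (chr1:46807544-46892852), a zinc importer, had 149 and 112 (ZT0), 129 and 151 (ZT6), 262 and 199 (ZT12), and 206 and 343 (ZT18). All values at ZT12 and ZT18 lay above those at ZT0 and ZT6, with an amplitude of 0.62 (SE 0.16) and a limma adjusted p of 0.44 in the cosine fit. Slc39a4, the zinc importer of the apical membrane, had 4661 and 4789.6 (ZT0), 4956 and 3817 (ZT6), 5431 and 4591 (ZT12), and 5949 and 6785 (ZT18), the ZT18 pair being the highest. Slc40a1, the iron exporter ferroportin, had 6071 and 3157 (ZT0), 5901 and 5663 (ZT6), 7112 and 7233 (ZT12), and 3245 and 4050.4 (ZT18). Its ZT12 libraries were the highest, and ZT0 replicate 1 lay close to the ZT6 values while ZT0 replicate 2 lay near ZT18. The iron importer Slc11a2 ranged from 772 to 1338, the zinc carrier Slc39a7 from 2687 to 3716 and the copper importer Slc31a1 from 3065 to 4107.

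None of the 37 mitochondrial carriers had a nominal p under 0.05 for ZT12 against ZT0 (9.96% of all genes tested did). Their median difference was 0.03, and that of all genes tested was 0.01. For ZT18 against ZT6, 1 was higher and 3 were lower at a nominal p under 0.05 (3.22% and 3.49% of all genes). Slc25a20 (chr9:108662088-108684641), which carries acylcarnitine into mitochondria, had normalised counts of 3195 and 3473 (ZT0), 4547 and 4185 (ZT6), 3928 and 4289 (ZT12), and 3223 and 2920.3 (ZT18). All values at ZT6 and ZT12 lay above those at ZT0 and ZT18. The amplitude was 0.30 (SE 0.08) and the adjusted p 0.431 in limma and 0.0427 in DESeq2. Slc25a5 ranged from 16994 to 24961 with its highest value in ZT12 replicate 2 and with ZT18 replicate 2 between the ZT12 libraries, and Slc25a3 ranged from 13757 to 16074. Slc25a39, a carrier of glutathione, ranged from 2827 to 5723.

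In the endoplasmic reticulum and Golgi class, Slc35g1 (chr19:38395980-38405610) was placed by its family and had normalised counts of 2781 and 2179 (ZT0), 3906 and 3919 (ZT6), 5022 and 4061 (ZT12), and 2906 and 3217 (ZT18). Its ZT12 libraries were the highest 2 and the ZT6 pair came next. ZT12 exceeded ZT0 by 0.88 (SE 0.19), with an adjusted p of 0.263 in limma and 0.0053 in DESeq2. The 3 genes of the class with the highest level per kb varied less than Slc35g1. Slc35a1, which carries CMP-sialic acid, ranged from 3049 to 3957, Slc35c1, which carries GDP-fucose, from 3931 to 4734, and Slc35f5 from 2803 to 4428. Not all of the class did, as Slc35d1 ranged from 763 to 2906 and Slc35d2 from 55.6 to 179. The median amplitude of the class, 0.16, was the smallest of all classes.

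The nucleoside carriers were few and low. Slc29a1, which equilibrates nucleosides across the plasma membrane, ranged from 179 to 309.7. Its lysosomal relative Slc29a3 had 215 and 156 (ZT0), 234 and 181 (ZT6), 312 and 289 (ZT12), and 219 and 211 (ZT18), and both ZT12 libraries were above all others, at 0.71 (SE 0.27) over ZT0, at a limma adjusted p of 0.455. Slc43a3, a purine nucleobase carrier, ranged from 71.8 to 124. Slc28a2, a sodium-coupled nucleoside carrier, had 6.95 and 124 (ZT0), 13.6 and 33.7 (ZT6), 88.9 and 16.1 (ZT12), and 20.5 and 141 (ZT18), and its pairs at ZT0, ZT12 and ZT18 each differed over 4-fold.

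Bile acid carriers were marked by differences between libraries of the same time. Slc51a (chr16:32474504-32487879), a subunit of the bile acid exporter of the basolateral membrane, had 0 and 795 (ZT0), 775 and 1073 (ZT6), 1177 and 646 (ZT12), and 5.13 and 2332 (ZT18). No read was found in ZT0 replicate 1, which allows up to 2.98 normalised counts (3 reads), and ZT18 replicate 1 held 6 reads. Slc10a2 (chr8:5083219-5105351), the sodium-coupled bile acid transporter, had 124 and 1300.2 (ZT0), 1552 and 1979 (ZT6), 4862 and 451 (ZT12), and 59.8 and 3417 (ZT18), the lowest 2 being the same libraries. The partner subunit Slc51b had 82.4 and 43.8 (ZT0), 171 and 173 (ZT6), 103 and 92.2 (ZT12), and 94.8 and 207 (ZT18), and both of these libraries lay within the range of the other 6. Slc27a4, a fatty acid transport protein, ranged from 2247 to 4032, and Slc27a3 of the same family was lower at ZT12 than at ZT0 by -1.30 (SE 0.49), with a limma adjusted p of 0.456. Pcyt1a overlaps Slc51a and Rasl12 overlaps Slc51b on the opposite strand.

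In 11 of the 220 members (5%, against 11.4% of all genes tested) the 2 libraries of at least 1 time point differed by over 2 on the log2 scale, that is over 4-fold. They were Slc10a2, Slc13a1, Slc16a9, Slc17a4, Slc28a2, Slc2a6, Slc30a10, Slc51a, Slc6a20a, Slc6a9 and Slc7a9. All 11 did so at ZT18 (5%; 6.52% of all genes), each with ZT18 replicate 1 the lower. At ZT0 it was 5 (2.27%; 5.59%), each with replicate 1 the lower, at ZT12 it was 3 (1.36%; 2.83%), each with replicate 1 the higher, and at ZT6 it was 0 (1.96% of all genes). All genes tested include genes with means under the 50 required of members. These shares therefore cannot show whether the members varied less between libraries than other genes of like level, which was not tested. Slc2a6, a glucose carrier of lysosomes, had 0 and 96.1 (ZT0), 96.1 and 182 (ZT6), 74.0 and 64.6 (ZT12), and 8.54 and 70.8 (ZT18), and the manganese exporter Slc30a10 had 1266 and 1459.8 (ZT0), 1263 and 1119 (ZT6), 1212 and 576 (ZT12), and 383 and 2121 (ZT18). In the same 2 libraries, ZT0 replicate 1 and ZT18 replicate 1, the anterior Hoxb and Hoxd sum was 30.8 and 23.1 against 558 to 2370 in the other 6, while the sum of 7 posterior genes was 8994 and 9996 against 4699 to 9570. The Hox lists were written after these values had been seen, and their part in the spread was not tested.

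**Figure D4:**
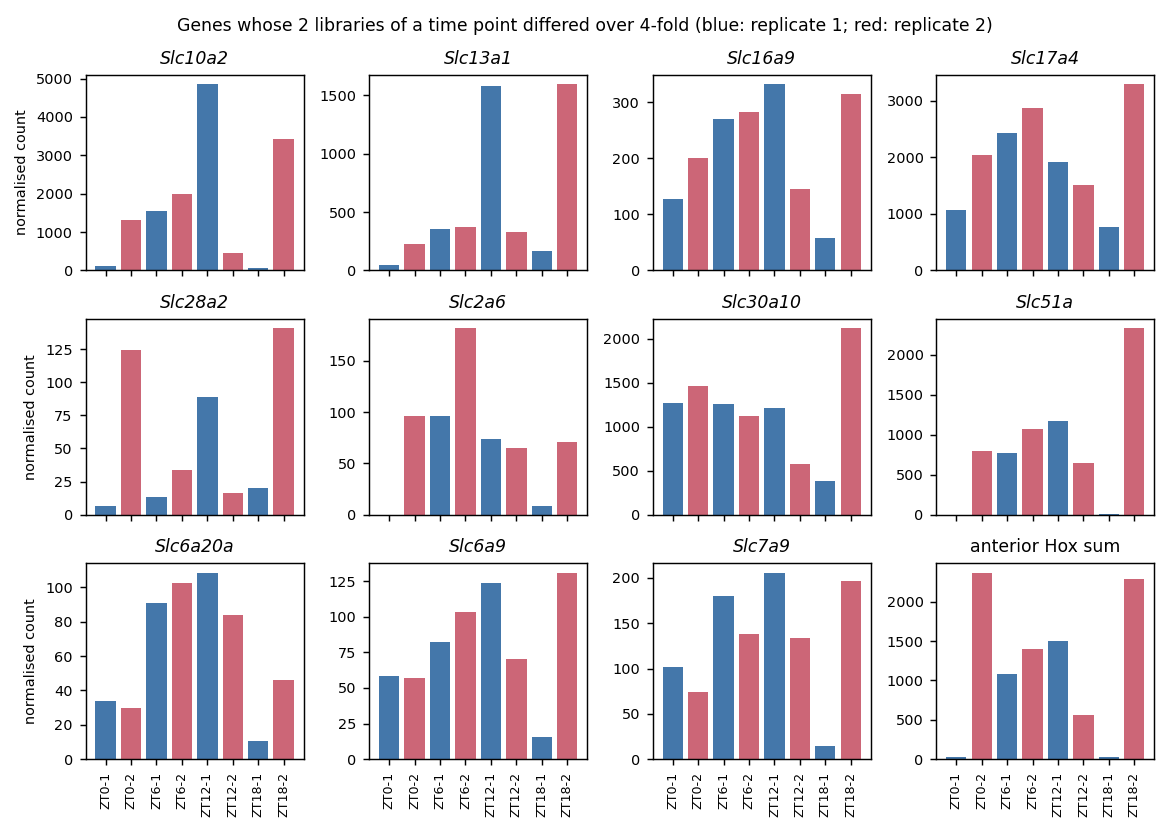
Normalised counts by library of the 11 members whose 2 libraries of a time point differed over 4-fold, and of the sum over 9 anterior Hoxb and Hoxd genes (last panel); blue bars are replicate 1, red bars replicate 2, and each vertical axis starts at 0. ZT18 replicate 1 is below ZT18 replicate 2 in all 12 panels, and in Slc51a the bars of ZT0 replicate 1 and ZT18 replicate 1 are at or near 0.

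Over the whole set, ZT12 and ZT0 were compared as the start of the active and of the resting phase. No member passed an adjusted p of 0.05 in limma (0.0667% of all genes did). A nominal p under 0.05 was found for 28 members (12.7%, against 9.96% of all genes). Of these 24 were higher at ZT12 (5.01% of all genes were) and 4 were lower (4.95%). The 4 were Slc34a2, Slc27a3, Slc1a4 and Slc16a1. The median difference of the 220 was 0.13 on the log2 scale and that of all genes tested 0.01, and 62.7% of the members were higher at ZT12 against 51.4% of all genes. The ZT12 libraries lay above both ZT0 libraries in 70 members and below both in 33, where 20.7% and 20.3% of all genes did. The 70 included 13 inorganic ion genes, 13 amino acid genes and 9 sugar genes, and the mitochondrial class had 9 higher and 8 lower. DESeq2 called 10 members in this contrast (1.24% of all genes with an adjusted p), and these were 9 higher at ZT12 and Slc34a2. The edgeR test called 0 (0.037% of all genes; 30 members at a nominal p under 0.05).

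These counts moved with the libraries used. Of the genes with a nominal p under 0.05, 85.7% of members and 50.3% of all genes tested were higher at ZT12 with all libraries. Without ZT12 replicate 1 there were 12 members higher and 3 lower (80% higher, against 48.8% of all genes). Without ZT12 replicate 1 and ZT0 replicate 2 there were 7 and 4 (63.6%, against 61.6%), so that the share of the members was then near that of all genes. Without ZT0 replicate 1 and ZT18 replicate 1 there were 36 and 16 (69.2%, against 53.2%). When ZT0 replicate 1, ZT18 replicate 1 or ZT18 replicate 2 was left out, 29, 32 and 34 members were higher and 8, 7 and 8 lower, and of all genes 56.4%, 51.4% and 50.9% were higher. When values were scaled to reads outside the mitochondrial genome, whose share was lowest in the ZT12 libraries at 6.68% and 7.85%, the counts were 19 higher and 6 lower, while the share of higher genes among all genes with a nominal p under 0.05 went from 50.3% to 37.1%. The members together took 2.95% and 2.54% of all values at ZT12 and 1.84% to 2.36% in the other 6 libraries, and of values outside the mitochondrial genome 3.17% and 2.75% at ZT12 and 2.36% to 2.70% elsewhere.

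**Figure D5:**
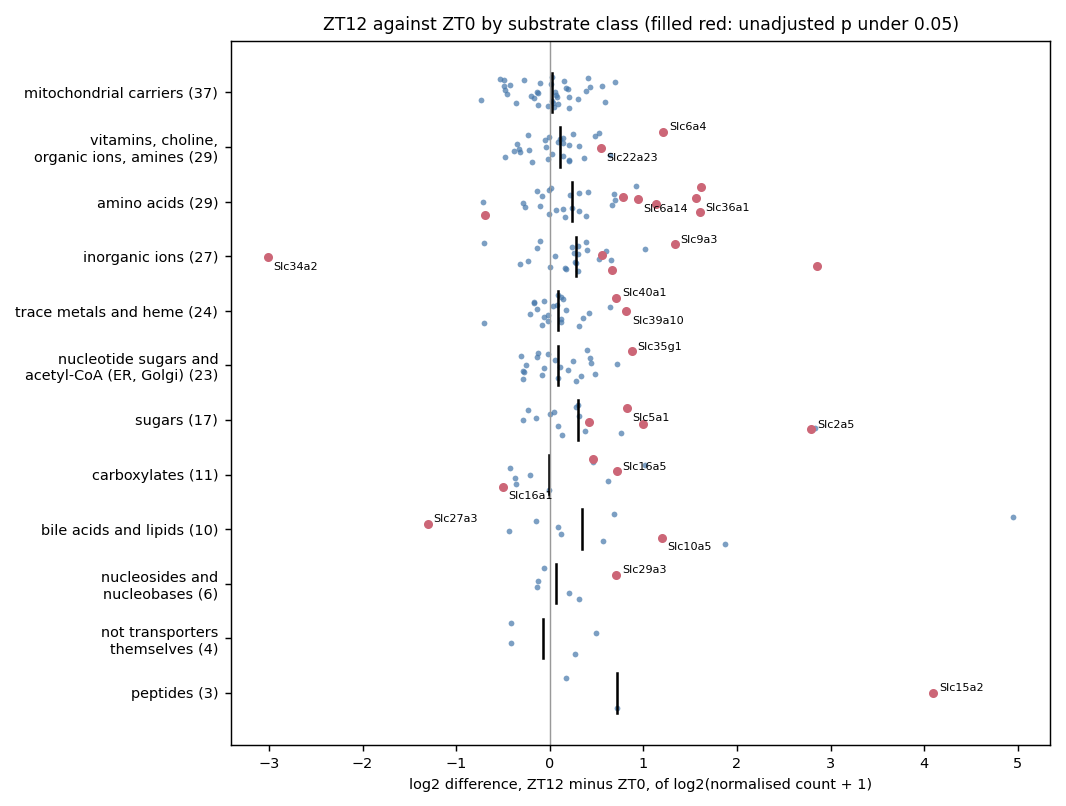
Difference between ZT12 and ZT0 (log2, ZT12 minus ZT0) of each of the 220 genes by substrate class; black bars are class medians, red points have a nominal p under 0.05 and up to 2 of them are named in each class. There are 24 red points right of 0 and 4 left of it, and none among the 37 mitochondrial carriers.

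ZT18 was compared with ZT6 as the middle of the active and of the resting phase. No member passed in limma (0.0444% of all genes did; smallest adjusted p 0.610 for Slc20a1) and none in edgeR (0.0518%; 22 members at a nominal p under 0.05), while DESeq2 called Slc20a1 and Slc37a2, both lower at ZT18 (0.504%). A nominal p under 0.05 was found for 26 members (11.8%, against 6.71% of all genes). Of these 8 were higher at ZT18 (3.22% of all genes) and 18 were lower (3.49%). The libraries did not overlap in 38 that were higher (19.2%) and 63 that were lower (18.8%), with 9 of the lower in the sugar class and 11 in the inorganic ion class. The median difference was -0.05 for members and -0.01 for all genes. This direction did not hold without ZT18 replicate 1, when 14 were higher and 11 lower and the median was 0.06. Of all genes with a nominal p under 0.05, 48.0% were higher at ZT18 with all libraries and 41.2% without that one. The members' counts, each with the share of all such genes that was higher, were 3 and 5 without ZT6 replicate 1 (55.6%), 3 and 3 without ZT6 replicate 2 (60.3%), 7 and 28 without ZT18 replicate 2 (35.3%), 10 and 11 without ZT12 replicate 1 (51.9%), 9 and 11 without ZT12 replicate 2 (51.5%), and 23 and 18 without ZT0 replicate 1 and ZT18 replicate 1 (45.6%).

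Genes that regulate or bind these carriers were read from a list of 12 outside the Slc names, of which 9 were tested. The list was written with earlier results known. Only Sgk1, the kinase that raises sodium uptake, was called in the limma cosine fit, with an adjusted p of 0.0493 and a peak at 17.0 h. It was at 7944 and 9421 normalised counts at ZT18 and at 2622 and 2832 at ZT6. The ubiquitin ligase Nedd4l, the kinases Wnk1, Wnk4, Stk39 and Oxsr1, the chaperone Bsg of the monocarboxylate carriers and the membrane linker Ezr had adjusted p of 0.568 to 0.880.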

How the data were processed

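Per the labels and the methods, the authors aligned reads with STAR to GRCm38 (mm10) and used DESeq2; the counting, its use of strand and the annotation are not given in the sources used here. The authors deposited a signal per gene and library, the read count divided by 1 size factor, here called the normalised count. Whole reads were recovered from its steps, and 100% of values came out whole within 0.1. Further deposited columns of the authors hold a fold change, its error, a test score and p-values, and were not used. Of 14247 genes, 14239 matched GENCODE M21.

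limma 3.58.1 (eBayes with trend, R 4.3.3) was run on log2(normalised count + 1) for the 13503 genes whose mean reached 10, as a 24 h cosine, an F-test and 2 contrasts. A fold change on this scale understates that of low genes. Alternatives were edgeR 4.0.16 and DESeq2 1.42.0 on recovered reads, a rank test standing in for the JTK method of the study, TMM or non-mitochondrial scaling, other filters and pseudocounts, no trend, a replicate block and leaving out libraries. The code was tested on simulated data.

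Genes named are the 3 highest per kb of each class, the 12 smallest cosine p, the 3 largest non-overlapping differences each way with a nominal (unadjusted) p under 0.05 per contrast, those at the limit of 50, and 24 well-known colon transporters; others are named beside a count or were chosen after their values were seen. Members and lists were chosen with earlier results of these data known. Some results of genes on these lists are not reported here.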

Additional observations from a re-analysis of the deposited data

How the results depend on the processing

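With limma, 0 members were called in the cosine fit, the F-test and both contrasts. DESeq2 called 9, 9, 10 and 2 of them in that order. Leaving out libraries left a time point with only 1 library, so calls at an adjusted p under 0.05 are not given for those fits. Leaving out ZT0 replicate 1 and ZT18 replicate 1 was an alternative chosen after seeing the data. The count of 34 members under a nominal p of 0.05 in the cosine fit became 6 by the rank test, 61 without ZT0 replicate 1 and ZT18 replicate 1, 21 without ZT12 replicate 1 and ZT0 replicate 2 (also chosen after seeing the data), and 18 to 43 over single libraries left out. The median difference of ZT12 against ZT0, 0.13, ran from 0.0545 to 0.222 when single libraries were left out. That of ZT18 against ZT6, -0.05, ran from -0.152 without ZT18 replicate 2 to 0.0585 without ZT18 replicate 1, and was 0.0585 without ZT0 replicate 1 and ZT18 replicate 1. The causes were not tested. The sign of the median for ZT18 against ZT6 thus depended on the libraries used.

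Over the genes tested, libraries of the same replicate number deviated from their group means with correlations of -0.29 (ZT0 with ZT12) to 0.22 (ZT0 with ZT18). Whether a number stands for a shared batch or collection was not tested. With the replicate number as a block, 1 member (Slc36a1) was called for ZT12 against ZT0 (0.0592% of all genes tested). In the other 3 it was 0 (0.0889% of all genes in the cosine fit, 0.0592% in the F-test and 0.0667% for ZT18 against ZT6). In the cosine fit 25 members had a nominal p under 0.05 (8.16% of all genes).

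Only 2 libraries stand behind each time, which limits the precision. Genes resting on few reads, such as Slc15a2 and Slc2a5 at ZT0, are limited by depth as well.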
